A study of Homo sapiens with 2 samples.

Results

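Along much of the human genome the DNase I hypersensitive sites of 2 osteosarcoma lines alternate, but in 57 stretches of chromosomes 1 to 22 the sites of U2OS followed each other without any Saos-2 site between them. These stretches, called runs here, were found by pooling the hotspots of both lines, sorting them by start, and keeping every series of 18 or more consecutive U2OS hotspots with no Saos-2 hotspot between them. The runs held 1293 U2OS hotspots, which were 2.09% of the 61903 U2OS hotspots on chromosomes 1 to 22. The whole series held 114944 hotspots, of which 63388 were from U2OS and 51556 from Saos-2. The members were chosen by the hotspot positions in both lists, so the number, length and emptiness of the runs are descriptions and carry no test.

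Saos-2 and U2OS are established human cell lines grown from osteosarcomas, and neither was given a treatment or a genotype in the labels. Each line was represented by 1 DNase-seq library, so no replicate error exists, no p-value is given, and every difference below is between 2 libraries. Hotspots are short regions in which DNase I cut often, listed by the authors at a false discovery rate of 0.05 on the hg38 assembly. The −log10 value deposited with each hotspot was taken as its significance, so higher values stand for stronger calls, and the values were capped at 100.

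DNase I cuts DNA where nucleosomes are displaced, as they are at active promoters, enhancers and insulators. Promoter sites are often open in many cell types, while distal sites vary between cell types and tend to lie in clusters near the genes they serve. A series of sites present in a line and missing in another can therefore span distal elements, promoters or both, and the run members were sorted by these places below. In a bulk library, a site open in few cells and a site weakly open in all cells cannot be told apart.

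Few protein-coding promoters lay in the runs, and those whose promoter was covered by a hotspot carry sequence that can be shown. The bases below are from RefSeq for GRCh38.p14, which is hg38, and each covers the 250 bases before an annotated start, written 5′ to 3′ on the gene's strand. The windows were chosen after their values were seen: a U2OS hotspot covered at least 200 of the 250 bases. FH is shown as a promoter open in both lines at the border of a run, and RPL10L, GABRG3, KCNK1, TRIM58 and RGS7 as promoters inside runs that had a hotspot in U2OS alone. The windows of ETV1, POTEF and FBXO15 also met this coverage and are not shown. Capitals mark matches on either strand to the GC box GGGCGG, the NF-Y box CCAAT, the AP-1 motif TGANTCA, the RUNX core TGTGGT, the TEAD core GGAATG or the ETS motif CCGGAAGT, and neighbouring or overlapping matches run together.
FH, chr1:241519756-241520005, minus strand: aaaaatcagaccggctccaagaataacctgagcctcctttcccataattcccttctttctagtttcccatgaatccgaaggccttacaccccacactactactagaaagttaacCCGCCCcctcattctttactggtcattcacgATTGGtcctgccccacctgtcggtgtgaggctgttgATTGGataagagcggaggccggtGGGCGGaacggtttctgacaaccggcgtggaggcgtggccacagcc
RPL10L, chr14:46651782-46652031, minus strand: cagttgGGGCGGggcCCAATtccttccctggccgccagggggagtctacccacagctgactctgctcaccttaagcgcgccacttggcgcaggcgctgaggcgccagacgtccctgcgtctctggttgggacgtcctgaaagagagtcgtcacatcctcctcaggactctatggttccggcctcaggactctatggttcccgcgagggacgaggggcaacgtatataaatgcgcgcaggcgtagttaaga
GABRG3, chr15:26970931-26971180, plus strand: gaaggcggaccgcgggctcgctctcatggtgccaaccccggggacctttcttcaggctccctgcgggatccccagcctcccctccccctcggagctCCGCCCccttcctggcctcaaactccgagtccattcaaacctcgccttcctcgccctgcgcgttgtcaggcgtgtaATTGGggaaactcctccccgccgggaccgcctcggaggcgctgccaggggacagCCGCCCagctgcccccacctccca
KCNK1, chr1:233613856-233614105, plus strand: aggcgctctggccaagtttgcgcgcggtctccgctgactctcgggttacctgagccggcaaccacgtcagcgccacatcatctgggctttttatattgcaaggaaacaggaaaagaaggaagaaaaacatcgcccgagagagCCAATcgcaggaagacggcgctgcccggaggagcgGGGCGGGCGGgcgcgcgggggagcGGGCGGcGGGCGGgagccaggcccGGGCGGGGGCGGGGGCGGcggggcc
TRIM58, chr1:247856937-247857186, plus strand: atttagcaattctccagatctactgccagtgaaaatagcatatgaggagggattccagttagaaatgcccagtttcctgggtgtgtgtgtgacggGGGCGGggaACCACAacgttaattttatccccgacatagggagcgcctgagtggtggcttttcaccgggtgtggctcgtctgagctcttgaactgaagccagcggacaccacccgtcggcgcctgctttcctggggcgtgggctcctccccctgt
RGS7, chr1:241357206-241357455, minus strand: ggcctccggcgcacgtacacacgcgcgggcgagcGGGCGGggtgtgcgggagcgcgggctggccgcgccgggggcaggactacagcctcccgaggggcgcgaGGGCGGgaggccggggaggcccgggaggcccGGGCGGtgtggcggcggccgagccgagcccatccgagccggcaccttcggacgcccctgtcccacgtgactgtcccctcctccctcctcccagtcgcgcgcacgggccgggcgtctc
The GC box GGGCGG, bound by SP factors, was present in all the windows shown, and CCAAT in FH, RPL10L, GABRG3 and KCNK1. Among the windows shown, the RUNX core TGTGGT was present in TRIM58 alone. This depends on which windows were shown, since ETV1 and POTEF, which met the same coverage, held the RUNX core and the NF-Y box too. The GC box was present in ETV1 and FBXO15 but not in POTEF. GGGCGG was present in 54.0% of all protein-coding promoter windows of this length, CCAAT in 32.4% and TGTGGT in 9.27%. A match is a stretch of letters and not a measured binding site.

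The 2 lists differed in size before any run was sought, since U2OS had 61903 hotspots on chromosomes 1 to 22 and Saos-2 had 50120. Read depth is not known from the lists, and a deeper library yields more hotspots. Marker genes of other cell types did not separate the lines: a hotspot lay within 1 kb of an end of 2 of 5 osteoblast markers in each line, with RUNX2 in both, ALPL in Saos-2 and COL1A1 in U2OS. SP7 and COL1A2 had none in either line. Of the mesenchymal markers VIM had such a hotspot in both lines and TWIST1 and PRRX1 in neither. Of the blood markers CD3E had such a hotspot in both lines, and the liver markers ALB and HNF4A and the epithelial markers CDH1 and EPCAM had none.

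The runs were long stretches with an ordinary number of U2OS sites. They held between 18 and 41 hotspots with a median of 21, and spanned between 204 and 3534 kb with a median of 1169 kb. In all they spanned 72.0 Mb, which was 2.51% of the extent of chromosomes 1 to 22. U2OS density in the runs was 17.96 hotspots per Mb, against 21.5 for U2OS and 17.4 for Saos-2 over the same chromosomes. The density of single runs went from 7.71 to 88.2 hotspots per Mb, and 23 of the 57 runs were denser than the U2OS mean. Gaps without any hotspot occurred inside the runs too: the widest in each run measured between 27.8 and 781 kb, with a median of 201 kb.

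**Figure D1:**
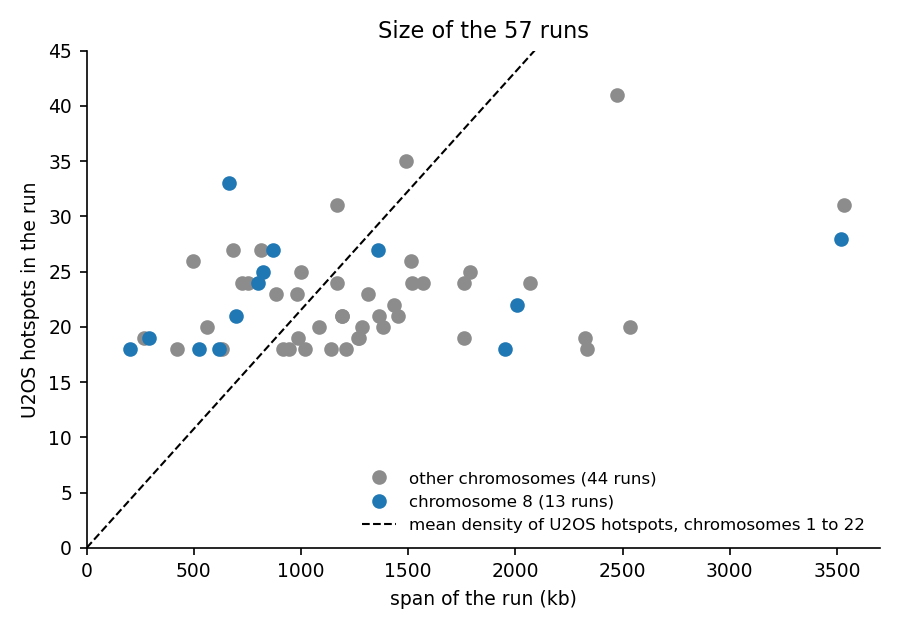
Number of U2OS hotspots in each of the 57 runs against its span in kb, 1 point per run, with the 13 runs of chromosome 8 in blue and the other 44 in grey; the dashed line is the mean U2OS density over chromosomes 1 to 22. The 23 runs above the line were denser than that mean, and spans went from 204 to 3534 kb.

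Seen from Saos-2, each run lay in a gap between neighbouring Saos-2 hotspots, and these gaps had a median of 1208 kb. The median gap between Saos-2 hotspots on chromosomes 1 to 22 was 24.8 kb. Saos-2 had 176 gaps of 1 Mb or more, and only 34 of them contained a run. The median of the 176 was 8 U2OS hotspots, and 62 held under 6, of which 10 held none. Across 1 Mb bins with 15 to 25 U2OS hotspots, 899 in number, Saos-2 had a median of 16 hotspots, with quartiles of 11 and 22. In 6 of these bins Saos-2 had none.

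Run sizes near the threshold of 18 had no clear order in number. There were 11 U2OS runs of 16 hotspots and 5 of 17 just outside it, and 12 of 18 and 7 of 19 just inside. The median span was 1161 kb for runs of 17 and 929 kb for runs of 18. U2OS hotspots formed 31680 runs in all, with a median length of 1. The reverse rule gave 9 Saos-2 runs of 18 or more, with 285 hotspots, a longest run of 107 and a median span of 136 kb. Of these, 5 were shorter than 200 kb and the shortest measured 14.0 kb, whereas the shortest U2OS run measured 204 kb. No Saos-2 run held a protein-coding gene, against 48 of the 57 U2OS runs. The Saos-2 runs were few and much shorter, so these counts per run are not matched for length. The Saos-2 list was shorter, and with the U2OS list reduced to the same number of hotspots, 27 U2OS runs with 588 hotspots were left.

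The run members were, by the authors' −log10 value, stronger than other U2OS hotspots without a Saos-2 partner. Of the 1293 members, 44 overlapped a Saos-2 hotspot by at least 1 bp. All 44 were the first or last hotspot of their run and overlapped the Saos-2 site that bordered it. The other 1249 had no overlap, which the rule nearly fixes, while among U2OS hotspots on chromosomes 1 to 22 the share without overlap was 53.2%. The median −log10 value was 4.24 for the 1249, with an interval of 4.05 to 4.47, and 3.38 for the 31659 U2OS hotspots outside the runs without overlap, with an interval of 3.35 to 3.41. U2OS hotspots outside the runs that overlapped a Saos-2 hotspot had a median of 7.24. The members thus lay between these classes. These 95% intervals of medians, like the Wilson 95% intervals of shares below, cover counting error only, and hotspots of 1 library are not replicates.

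Strong calls were more frequent and weak calls less frequent among the members without overlap than among such hotspots outside the runs. A −log10 value of 10 or more was found in 262 of the 1249 members without overlap, or 21.0% (Wilson interval 18.8 to 23.3), and in 9.63% of the hotspots without overlap outside the runs. Among overlapped hotspots outside the runs it was 37.1%, and among all U2OS hotspots on chromosomes 1 to 22 it was 22.7%. Weak calls under 2 were 12.7% of the members without overlap, against 17.9% outside. Counting the overlapped edges, 86 members reached 20 and 11 reached 50. The median width of the members without overlap was 227 bp, against 201 bp for those without overlap outside and 313 bp for the overlapped class.

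Strength went up stepwise with the length of the U2OS run. Hotspots without overlap that stood alone between Saos-2 hotspots had a median −log10 of 3.14. In runs of 2 to 4 it was 3.29, in runs of 5 to 9 it was 3.59, in runs of 10 to 17 it was 3.87, and in the runs of 18 or more it was 4.24. The share at 10 or more went from 7.36% through 8.67%, 11.4% and 13.7% to 21.0%, and was 19.8% in the longest class without chromosome 8. The share within 1 kb of an end of a protein-coding gene was 10.1%, 11.4%, 9.96%, 5.60% and 4.56% in the same order. Shorter runs hold most of these hotspots: 16757 lay in runs of 2 to 4, and 2374 in runs of 10 to 17.

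**Figure D2:**
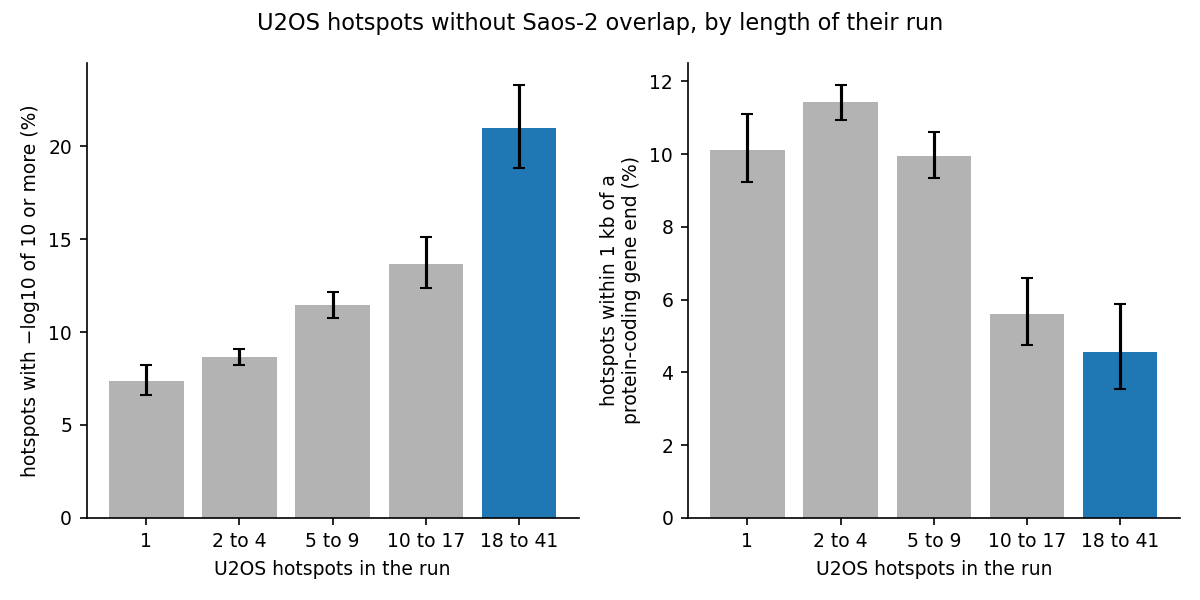
U2OS hotspots without Saos-2 overlap by the number of U2OS hotspots in their run, with the percent at a −log10 value of 10 or more on the left and the percent at a protein-coding gene end on the right; error bars are Wilson 95% intervals. The first share was 7.36% for single hotspots and 21.0% in runs of 18 or more (blue), while the gene-end share was 10.1% and 4.56%.

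The members lay farther from the ends of protein-coding genes than other U2OS hotspots did. At a gene end, meaning 1 kb or less from where a protein-coding gene starts or stops, there were 67 of the 1293, or 5.18% (interval 4.10 to 6.53). For the 1249 without overlap the share was 4.56%, against 10.4% of the hotspots without overlap outside the runs and 27.4% of the overlapped ones. The rule itself leaves out shared sites, and 70.3% of all gene-end U2OS hotspots overlapped a Saos-2 hotspot against 41.6% of the others. The median distance to the nearest end of a protein-coding gene was 127 kb for the members, 35.8 kb for hotspots without overlap outside the runs, and 16.5 kb for the overlapped ones. Inside a protein-coding gene lay 35.3% of the members, and 49.7% lay inside neither such a gene nor a lncRNA gene. Outside the runs, 39.8% of the hotspots without overlap lay inside neither. Crowding was not higher in the runs: 26.1% of the members had another U2OS hotspot within 2 kb, against 29.0% of the hotspots without overlap outside.

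In every run the strongest member without overlap lay more than 1 kb from the ends of protein-coding genes. Its −log10 value was at least 10.5 in each of the 57 runs, with a median of 21.6. Each was picked as the highest of its run, and 21.0% of all members without overlap reached 10, so high values follow from the choice. None of these 57 hotspots lay within 1 kb of an end of a protein-coding gene, but only 4.56% of all members without overlap did. Their median distance from such an end was 140 kb, close to the 131 kb of all members without overlap. The nearest lay 4.69 kb from an end of SLC35F3. Of the 57, 21 lay inside a protein-coding gene and 26 inside no gene of any annotated kind. Ends of lncRNA genes were not counted here, and the strongest member of chr7:89414-813548 covered the start of the lncRNA gene LINC03015. In 7 runs an edge hotspot that overlapped Saos-2 was stronger still.

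Protein-coding genes were sparse in the runs, and those touched were longer than genes in general. The runs touched 185 of 19122 such genes, or 2.57 per Mb against 6.65 per Mb over chromosomes 1 to 22. Genes for lncRNAs were nearly as dense as elsewhere, at 406 genes or 5.64 per Mb against 6.19, and 137 of them held a run hotspot. The median length of the protein-coding genes was 32.7 kb, and 74.8 kb without the olfactory receptor genes, against 24.5 kb in general. Over 200 kb measured 25.4% of them, against 7.01%. A gene was counted if at least 1 of its bases lay in a run, and long genes meet this more easily. The lengths therefore partly follow from the counting, and how far was not tested. Of the 57 runs 9 touched no protein-coding gene, and 22 had no member at a gene end. The runs also touched 249 pseudogenes, or 3.46 per Mb against 4.98, of which 8 held a member. They touched 16 microRNA genes (0.222 per Mb against 0.624) and 11 snoRNA genes (0.153 against 0.400), of which none held one. How many genes of these kinds, or lncRNA genes, hold a U2OS hotspot in general was not counted. The tRNA gene TRS-TGA1-1 was the only tRNA gene touched and overlapped a member.

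Most genes in the runs had no hotspot at their ends in either line. A U2OS hotspot lay within 1 kb of an end of 65 of the 185, or 35.1% (interval 28.6 to 42.3), against 54.1% of all protein-coding genes. Without the olfactory receptor genes it was 62 of 142, or 43.7%. A U2OS and no Saos-2 hotspot was found there for 51 genes, or 27.6% (interval 21.6 to 34.4), against 10.6% of all. The rule selected against Saos-2 hotspots, and with them against shared gene ends, so both differences are descriptions of what was chosen. The other 14 genes, with both lines at an end, included FH, MCPH1, SDCBP, ETV1 and DDX18, whose ends coincide with run borders, and were named after their values were seen. Of the 120 genes without a U2OS hotspot at an end, 49 had a member somewhere inside.

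The promoter sequences shown above are exceptions among the run promoters. Outside chromosome 8, for which no promoter sequences were used, 156 protein-coding windows of 300 bases started in the runs and 26 held a U2OS hotspot. This was 16.7% (interval 11.6 to 23.3), against 44.3% of all such windows. The rule keeps windows open in both lines out of the runs except at borders, so the lower share describes what was chosen. Outside the runs 7647 windows were open in both lines, 1689 in U2OS alone and 10777 in neither. The 26 windows belonged to 23 genes, of which 19 had no Saos-2 overlap there, and windows of the same gene could share a hotspot. The 26 windows had a median of 18.5 CpG in the 250 bases and a median GC content of 58.8%. The 130 without a hotspot had a median of 4 CpG and a GC content of 47.6%, or 8 CpG and 55.2% without the olfactory receptor genes. Promoters outside the runs had a median of 21 CpG where both lines had a hotspot, 22 where U2OS alone did, and 7 where neither did. GGGCGG was present in 73.1% of the 26 windows and in 28.5% of the 130, or 39.4% without the olfactory receptor genes. Outside the runs it was present in 70.4% of the windows open in both lines, 69.1% of those open in U2OS alone and 39.6% of those open in neither.

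The values at these promoters were lower than those of the strongest members of the same runs, except at FH. The FH hotspot, chr1:241519635-241520109, had a −log10 of 41.4 and was shared with Saos-2. Among those in U2OS alone RPL10L, a testis-expressed ribosomal protein gene, had the highest at 15.2. GABRG3, a GABA-A receptor subunit, had 7.15, the potassium channel gene KCNK1 had 6.49 and TRIM58 had 5.23. RGS7, a regulator of G protein signalling, had 3.52. MYCN, a MYC family gene, had a 59 bp hotspot at its promoter with a −log10 of 1.46, near the limit of the list.

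The longest run, with 41 hotspots, covered chr2:20728149-23200441 and 2472 kb around APOB. APOB, which encodes the apolipoprotein of low-density lipoproteins, and TDRD15 contained no hotspot, and LDAH, a lipid droplet hydrolase gene, contained 2. Most of its members lay past TDRD15, where no other protein-coding gene was annotated. The strongest, chr2:23135730-23136090, had a −log10 of 26.6 and lay in a lncRNA gene, 249 kb from KLHL29, the nearest protein-coding gene. The Saos-2 sites at its borders were weak, with −log10 values of 1.33 at 77.0 kb before the run and 1.65 at its last member.

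The second run, with 35 hotspots, covered chr1:240031455-241520109 and 1489 kb. It held FMN2, an actin-nucleating formin gene, with 10 members, RGS7 with 13, and the end of FH, the fumarate hydratase of the citric acid cycle, with 1. Its strongest member was the shared FH promoter site, and the strongest without overlap was chr1:240765477-240766247 at 33.2, located 8.88 kb from an end of RGS7. No Saos-2 hotspot lay in FMN2 or RGS7. The Saos-2 borders had values of 4.35 and, at FH, 11.6.

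The next runs in order of length show how differently the members were spread. On chr8:138740169-139405963 there were 33 hotspots in 666 kb, of which 9 lay in COL22A1, a collagen gene, and the strongest, 1108 bp wide with a −log10 of 76.4, lay 302 kb from it. On chr16:9160152-10328511 there were 31 in 1168 kb, and 18 lay in GRIN2A, an NMDA receptor subunit gene, including the strongest at 22.6. On chr4:57191491-60725043 there were 31 in 3534 kb, the widest run of all, and no protein-coding gene. Its strongest member, at 41.5, overlapped the upper Saos-2 border, whose own value was 3.28, and the strongest without overlap reached 34.1. The Saos-2 borders of the chromosome 8 run had values of 4.58, inside COL22A1, and 1.69, and those of the GRIN2A run 2.44 and 1.56. Over its whole length COL22A1 had 14 U2OS hotspots and 1 Saos-2 hotspot.

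**Figure D3:**
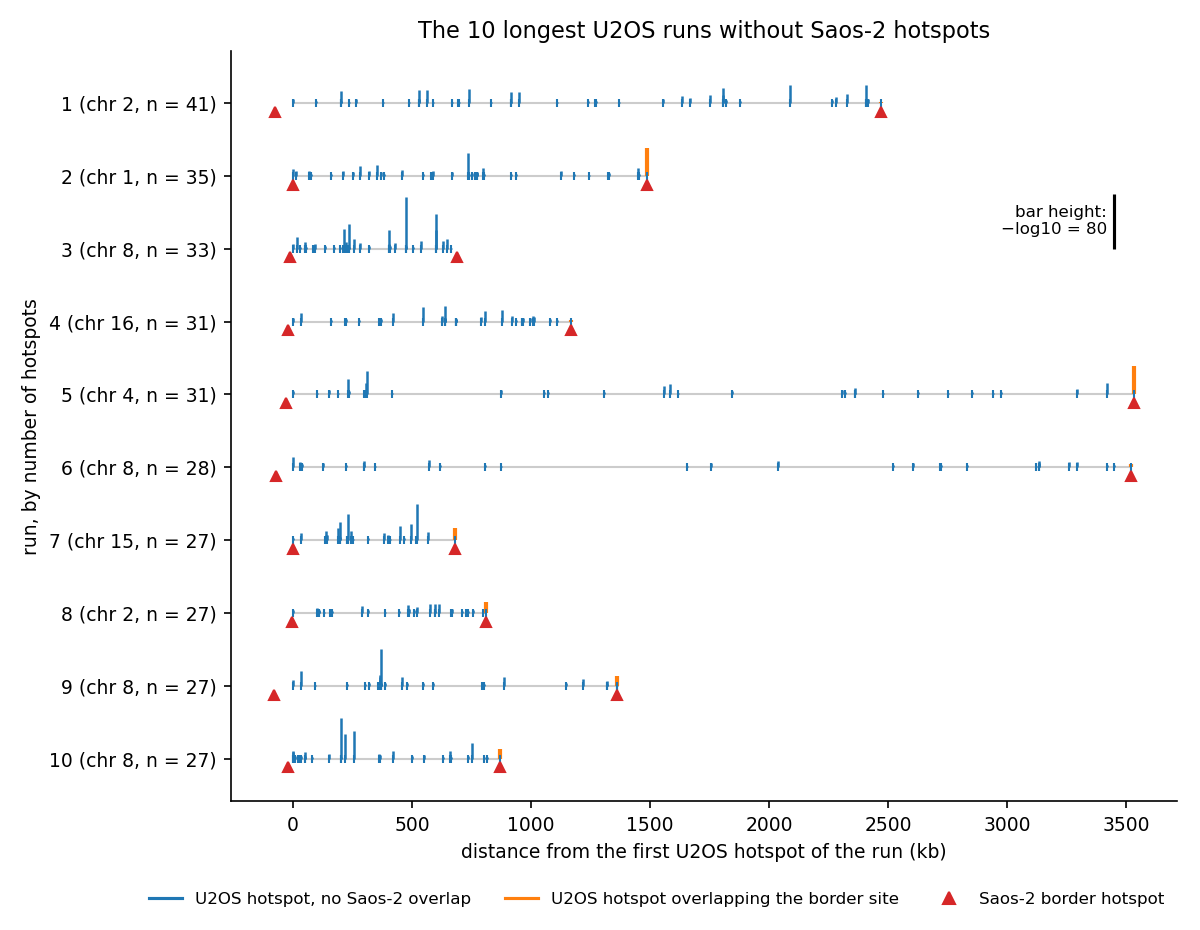
The 10 longest runs by distance in kb from their first member, with bar height for the −log10 value of each hotspot (scale bar 80); orange bars overlap the Saos-2 site at the border and triangles are the Saos-2 border sites. Members were spread unevenly, from 33 hotspots in 666 kb on chromosome 8 to 31 in 3534 kb on chromosome 4.

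The remaining runs of the 10 longest held 27 or 28 members each. CSMD1, a large transmembrane protein gene, held 12 of the 28 in chr8:2885763-6406685, where the widest empty gap inside any run, 781 kb, was found and the strongest member reached 14.8. On chr15:59689915-60371806 the forkhead gene FOXB1 and ANXA2, which encodes annexin A2, held 1 each, and the strongest, at 52.5, lay in a lncRNA gene between them. On chr2:15811417-16623416, the MYCN run, CYRIA, a RAC1-binding protein gene, held 3 and the strongest member without overlap had 13.8. On chr8:57193301-58553379 FAM110B held 2, CYP7A1, the rate-limiting enzyme of bile acid synthesis, held none, and the strongest, at 54.3, lay 430 kb from FAM110B. On chr8:141367146-142235526 PTP4A3, a phosphatase gene, held 4 and the strongest member reached 59.6 outside any gene. The Saos-2 borders of the CSMD1 run had 5.71 and, at MCPH1, 2.48. Those of the FOXB1 run had 13.0 at BNIP2 and 5.46 in ANXA2, and those of the MYCN run 6.46 and 3.45. The FAM110B run was bordered by 4.08 and, at SDCBP, 2.24, and the PTP4A3 run by 3.02 and, in TSNARE1, 9.47.

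Some runs had most of their members within the span of a gene. SDK1, a sidekick cell adhesion gene, held 22 of the 23 members of chr7:3300987-4283282 and no Saos-2 hotspot over its 968 kb. Its members had values up to 40.1, and the Saos-2 sites on either side had 2.22 and 2.98. RBFOX1, a neuronal splicing factor gene, held 19 of 24 in chr16:5098596-5851915, and with its 2474 kb reached beyond the run, with 41 U2OS and 5 Saos-2 hotspots in all. CTNNA3, an alpha-catenin gene, held 17 of 18 in chr10:66747939-67764520, and PCDH15, a protocadherin gene of hair cells, held 15 of 22 in chr10:54797982-56231709. ZFPM2, a GATA cofactor gene, held 13 of 21 in chr8:105022369-105717124. CMSS1 with 17 and FILIP1L with 15 overlap each other and share most of the 19 members of chr3:99808315-100074236. Per length the CMSS1, FILIP1L and GRIN2A genes were the densest of these, with 4.67, 5.25 and 4.19 members per 100 kb, against 2.27 in SDK1, 2.23 in RGS7 and 0.583 in CSMD1.

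Some receptor and transcription factor genes lay in the runs, and all those below were picked after their place or values were seen. Genes for GABA-A receptor subunits lay in 2 runs. On chr15:26260657-28022037, a run of 24, GABRA5 held 2 members and GABRG3 6, and on chr4:45554549-47123048 GABRB1 held 3, GABRA2 1, and GABRG1 and GABRA4 none. IRX4 and IRX2, Iroquois homeobox genes, lay in chr5:1799860-3311454, where IRX4 held 1 member and IRX2 none, and the strongest reached 39.6. The transcription factor genes FOXB1, SOX17, EBF2, NR4A2 and MYCN had a U2OS and no Saos-2 hotspot at an end. IRX2, IRX4, IKZF1, TFAP2D, SOX7, MEOX2 and FOXL3 had none in either line. Over all genes in the runs the share with U2OS alone at an end was 27.6%, against 10.6% of all protein-coding genes. ETV1 had both.

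The gene lists were counted over all runs, in which 0.967% of all protein-coding genes lay, and a count of 0 or 1 in a small list says little about it. Of 391 olfactory receptor genes on chromosomes 1 to 22, 43 lay in the runs, all in chr1:247372847-248826069, where 4 held a member and 3 had a U2OS hotspot at an end. Of 14 osteoblast genes none lay in a run, and of 12 hepatocyte and intestine genes only APOB did. Of 15 neural adhesion genes only CSMD1 did, of 42 collagen genes COL22A1, of 28 cadherin genes CDH6, and of 63 protocadherin genes PCDH15. Potassium channel genes had 3 of 94 in runs, namely KCNK1, KCNJ3 and KCNH5. SLC genes had 1 of 384 and TMEM genes 1 of 226. None of 506 ZNF genes, 152 genes with symbols starting in KRT, 24 claudin genes or 40 HOX genes lay in a run.

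The other runs are described by chromosome, with genes named after their values were seen and border values given as −log10, the lower border first. On chromosome 1, chr1:233183345-234066102 had 23 hotspots with 5 in SLC35F3, and its Saos-2 borders lay in PCNX2 at 1.47 and SLC35F3 at 2.23. The olfactory receptor run had 21 hotspots, with borders at 2.41 and 3.09. Past FH, chr1:241896493-242811467 had 18 with 4 in PLD5, and its lower border was at the DNA repair gene EXO1 with 4.63 and its upper border had 2.13. The desert run chr1:187696180-190019992 had 19 and no protein-coding gene, and borders at 1.80 and 3.28. On chromosome 2, chr2:103823894-104825864 had 25 and no protein-coding gene, with borders at 2.46 and 1.63. DDX18, an RNA helicase gene, ended the run chr2:116452730-117814788 of 21, and its shared site had a Saos-2 value of 19.1, against 2.37 at the other border. GALNT13, a glycosyltransferase gene, held 7 of 20 in chr2:153808849-156342033, which lay 289 kb past its lower border of 2.08 and ended at one of 1.75. The run chr2:129006299-130145199 had 18 and borders at 5.11 and 3.43, with 1 in CCDC74B and none in POTEF, whose family has near-identical copies, so that hotspots there are uncertain.

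On chromosomes 3 to 6, PDZRN3 with 4 and CNTN3, a contactin gene, with 3 shared the sparsest run, chr3:73094129-75429832, with 18 hotspots and borders at 3.61 and 7.22. The CMSS1 run was the second densest, at 71.4 per Mb, and its borders had 2.73 in COL8A1 and 1.51. UGT8, a galactolipid enzyme gene, held 3 of 19 in chr4:114598226-116358912, with borders at 3.01 and 2.06, and the borders of the chromosome 4 receptor run had 1.71 and 1.89. The IRX run had 26 hotspots and borders at 2.29 in MRPL36 and 1.69. It was followed after 772 kb and 5 Saos-2 hotspots by chr5:4082963-5026199, which had 18, no protein-coding gene, and borders at 3.85 and 14.7. DNAH5, an axonemal dynein gene, held 10 of 18 in chr5:13566840-13986332, with borders at 4.83 and 8.56. CDH6, a cadherin gene, held 3 of 20 in chr5:30279221-31361570, with borders at 11.3 and 2.11. RHAG, CRISP1 and CRISP2 held 1 each in chr6:49623177-50816420, which had 21 and borders at 3.79 and 4.53.

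On chromosome 7, chr7:89414-813548 had 24 hotspots with 5 in PRKAR1B, a regulatory subunit gene of protein kinase A, and 2 in PDGFA, a growth factor gene, and its borders had 2.22 and 3.33. DGKB with 10 and AGMO with 7 shared the 25 of chr7:13991307-15780560, whose lower border was at ETV1 with 9.62 and whose upper border had 2.03. ZPBP held 4 of 24 in chr7:48901974-50418393, with borders at 2.60 and 3.38, and COBL, an actin nucleator gene, 4 of 20 in chr7:51123624-52410461. These runs lay 705 kb apart, and the borders of the second had 20.1, in COBL, and 2.59. On chromosome 10 CELF2, a splicing regulator gene, held 9 of 24 in chr10:8726063-10795243, with borders at 5.47 and 3.05. The borders of the PCDH15 run had 6.19 and 7.70, and those of the CTNNA3 run 4.04 and 5.58.

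On chromosomes 12 to 15, TMEM132D held 9 of 24 in chr12:129607332-130776471, with borders at 13.0 and 2.80. MDGA2 held 9 of 20 in chr14:46054561-47439199, with borders at 4.97 and 4.72, and SYT16 and KCNH5 3 each of 19 in chr14:61974061-62957967, with borders at 2.28 and 2.49. ADAMTSL3, a matrix glycoprotein gene, held 11 of 20 in chr15:83581607-84143178, where the strongest member reached 66.1, the highest outside chromosome 8, between borders of 6.17 and 1.97. The borders of the GABRG3 run had 2.09 and, in OCA2, 5.22. The run chr15:96693900-97904453, which touched no protein-coding gene, had 18 and the strongest of all borders, 50.2 at ARRDC4, but this site lay 55.7 kb past the last member. On chromosomes 16 to 22, SNX29, a sorting nexin gene, held 8 of 18 in chr16:12340097-12971659, where the strongest member, at 53.0, overlapped the upper border of 3.80 and the strongest without overlap reached 14.0. Its lower border had 2.76. The borders of the RBFOX1 run had 16.5 at EEF2KMT and 13.8 in RBFOX1 itself. DLGAP1, a postsynaptic scaffold gene, held 10 of 19 in chr18:3966703-5238224, with borders at 1.55 and 6.21, and NETO1 3 of 23 in chr18:72833581-74148151, with borders at 2.53 and, at FBXO15, 8.02. Neither gene-poor run of chromosome 20, chr20:47795311-48293144 with 26 and chr20:54980470-56246081 with 19, had a member in a protein-coding gene. Their borders had 11.7 and 3.88, and 1.83 and 1.57. TAFA5 held 8 of 21 in chr22:48090111-49282264, with borders at 3.15 and 1.89.

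Chromosome 8 held more runs than any other chromosome. It had 13 of the 57 runs and 298 of the 1293 members, or 23.05%, while it had 5.52% of the U2OS hotspots and 4.14% of the Saos-2 hotspots on chromosomes 1 to 22. In runs lay 8.73% of its U2OS hotspots, against 1.70% on the other chromosomes. Its ratio of U2OS to Saos-2 hotspots, 1.64, was also the highest of the 22 chromosomes, the next being 1.43 on chromosome 18, and the part of this ratio in the number of runs was not tested. Chromosome 15 had 4.32% of its U2OS hotspots in runs, chromosome 16 had 3.65% and chromosome 7 had 3.34%. Runs occurred on 16 chromosomes, and none on chromosomes 9, 11, 13, 17, 19 and 21. Strong members were 26.8% on chromosome 8 (interval 22.1 to 32.1) and 21.0% elsewhere (interval 18.6 to 23.6), and these intervals overlap.

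The chromosome 8 runs outside the longest 10 were of mixed kinds. SOX17, an endoderm and vascular transcription factor gene, and RP1, with 7 members, lay in chr8:54280229-55103133, which had 25 and borders at 1.85 and 14.0. EBF2, an early B-cell factor family gene, held 4 of 24 in chr8:25584622-26383452, with borders at 9.98 and 2.67, and DLC1, a RhoGAP gene, and SGCZ 8 each of 22 in chr8:13372502-15378526, with borders at 6.10 and 1.90. MSRA held 8 of 18 in chr8:10273991-10800223, with borders at 2.03 and 4.90, and RALYL 4 of 18 in chr8:82675760-84626532, with borders at 4.78 and 4.01, while chr8:136723162-137342479, with 18, touched no protein-coding gene and had borders at 5.39 and 2.21. The ZFPM2 run had borders at 9.56 and 2.14. The densest run of all, chr8:29723132-29927182, with 18 hotspots at 88.2 per Mb, had a dense neighbour in chr8:29373953-29665641, with 19 at 65.1 per Mb. They lay 57.5 kb apart, with 4 Saos-2 hotspots of −log10 1.31 to 8.92 between them, and neither touched a protein-coding gene. The borders of the neighbour had 1.77 and 8.92. The densest run held the only member at the cap of 100, and its border sites had 1.31 and 1.46.

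**Figure D4:**
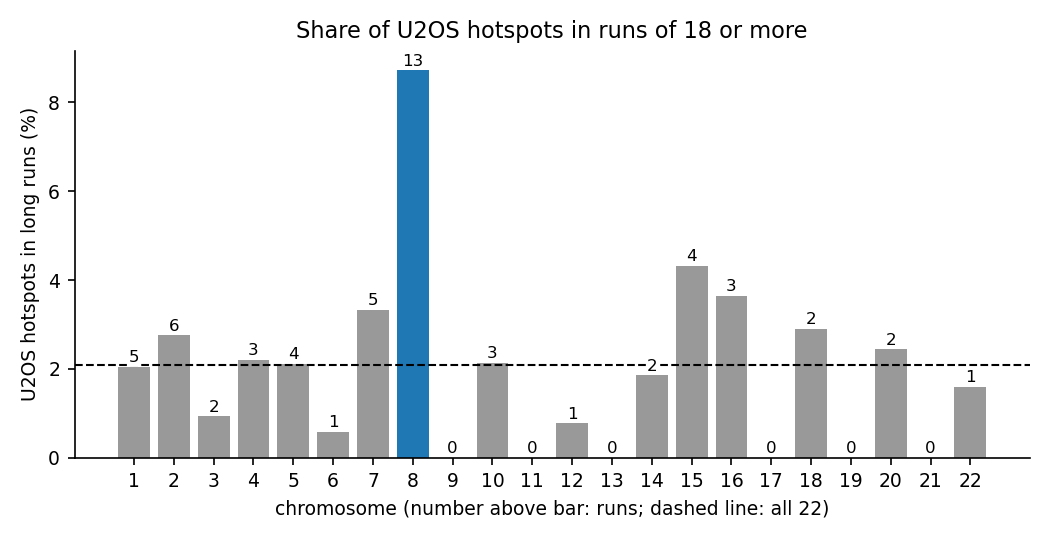
Percent of the U2OS hotspots of each chromosome that lay in runs, 1 bar per chromosome, with the number of runs above each bar and chromosome 8 in blue; the dashed line is the 2.09% of chromosomes 1 to 22 together. Chromosome 8 stood at 8.73% with 13 runs, and 6 chromosomes had none.

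The Saos-2 sites that ended the runs were weaker than Saos-2 hotspots in general and more often shared. The 114 border sites had a median −log10 of 3.21, from 1.31 to 50.2, against 4.06 for all Saos-2 hotspots on chromosomes 1 to 22. Their median width was 193.5 bp, against 239 bp, and 22 of them, or 19.3%, had a value under 2, against 14.1%. A U2OS hotspot overlapped 81, or 71.1% (interval 62.1 to 78.6), against 58.3% of all Saos-2 hotspots. At an end of a protein-coding gene lay 17, or 14.9%, against 20.2%. Being the first Saos-2 hotspot met beside a run is part of how they were chosen, so these shares are descriptions.

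Most borders were single Saos-2 sites in the pooled order, in which a U2OS hotspot overlapping the border also counts as next. Distance from a border to the next Saos-2 hotspot was not measured. Of the borders 95, or 83.3%, were single Saos-2 hotspots with no other Saos-2 hotspot next in order, against 64.8% of Saos-2 series in general. The median distance from the run to its border was 3.24 kb, with 63 within 10 kb and the farthest at 289 kb. Past the border the next U2OS series had a median of 2 hotspots and a maximum of 17, and was 5 or longer at 25 borders. In the 1 Mb on either side of the runs, U2OS had a median of 22 hotspots and a mean of 25.3, from 0 to 77. Saos-2 had a median of 11 and a mean of 13.5, from 1 to 44. These flanks were counted from the first and last member, so they include the rest of the Saos-2 gap up to the border. Where another run lay within 1 Mb, the flank took in part of it. The flank with 0 was the lower one of chr7:89414-813548, which the chromosome end shortens, as it does the upper flank of the olfactory receptor run. Saos-2 stood at or under its chromosome 1 to 22 mean of 17.4 per Mb in 79 of the 114 flanks, and U2OS at or under its own of 21.5 in 52.

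**Figure D5:**
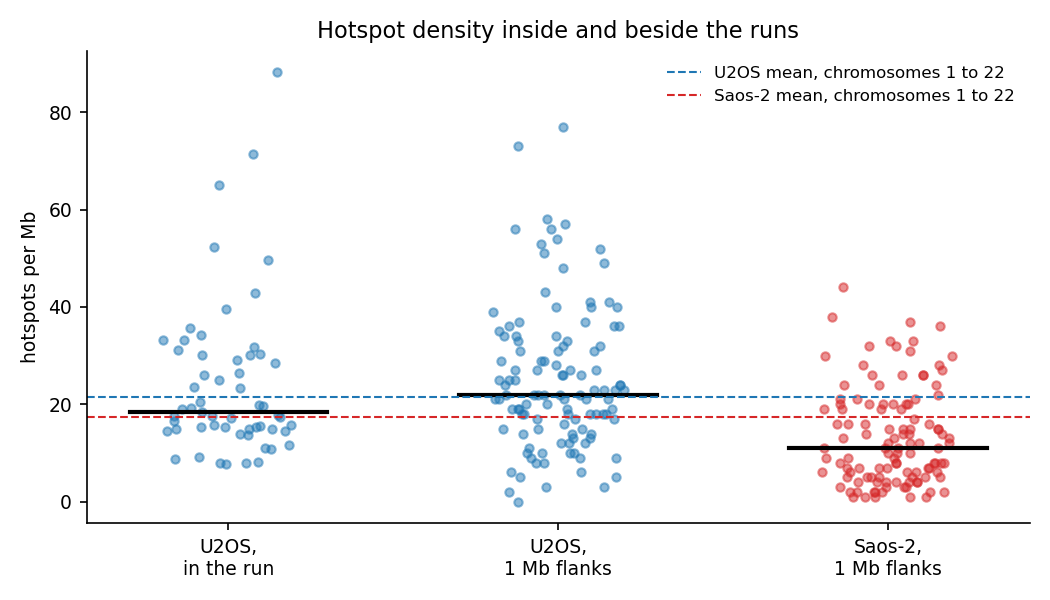
Hotspots per Mb for U2OS inside each of the 57 runs and for both lines in the 114 flanks of 1 Mb, 1 point per run or flank, with black bars for the medians and dashed lines for the means over chromosomes 1 to 22. The flank medians were 22 for U2OS and 11 for Saos-2. The flank means were 25.3 and 13.5, against means of 21.5 and 17.4 over chromosomes 1 to 22.

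In 4 cases 2 runs lay less than 1 Mb apart. On chromosome 1 the RGS7 and PLD5 runs lay 376 kb apart with 6 Saos-2 hotspots between them, so that chr1:240031455-242811467 had 66 U2OS hotspots in 2780 kb. On chromosome 5 the IRX run and its neighbour made a stretch of 3226 kb with 62 U2OS hotspots, and on chromosome 7 the ZPBP and COBL runs, with 20 Saos-2 hotspots between them, made one with 65. The neighbouring chromosome 8 runs made one of 553 kb with 45.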

How the data were processed

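DNase-seq of Saos-2 and U2OS, 1 library each, was used in the form of the hotspot lists deposited by the authors on hg38. Per the submitters' processing notes, reads were trimmed with Trimmomatic 0.38 and aligned with BWA 0.7.15; the hotspot caller is not given in the sources used here. Each deposited hotspot has a −log10 value of its significance, inferred from its lowest value of 1.30 (the −log10 of 0.05), and a deposited score that only rescales it and was not used. Lists were called per library, read depth is unknown, and lists of different depth differ in length.

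Runs were found with pandas 2.3.3 on Python 3.11.15, a Saos-2 hotspot going first at an equal start, and the search was tested on simulated data, where it found 41 of 41 planted runs. Gene spans and promoter windows came from RefSeq GRCh38.p14; exons were not used. Gene ends were taken as 1 kb or less from the start or stop of a protein-coding gene. Shares have Wilson 95% intervals (scipy 1.17.1). The members and lists were chosen with earlier results of these data known. Named were the gene holding the most members in each of the 10 longest runs, up to 5 genes in each of the 5 longest, and the 10 genes with most members; hotspots named by rule were the strongest of the 10 longest runs, and other names are marked; some items that this rule covers are not reported here. Alternatives were merging, thresholds, sorting, run length, gene window and a U2OS list reduced to the Saos-2 number.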

Additional observations from a re-analysis of the deposited data

How the results depend on the processing

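No paired analysis was possible because each line had 1 library. Of 45 alternative values, 37 stayed within 1.5 times the reported count or near the reported value, 8 moved and 0 reversed. With the U2OS list reduced to its strongest 50120 hotspots, the number of Saos-2 hotspots on chromosomes 1 to 22, 27 runs with 588 members remained, all of them among the reported members, with a median width of 275 bp and a median −log10 of 5.77; fewer hotspots were left to form runs. Requiring 15 hotspots gave 86 runs, and requiring 22 gave 28 runs with 739 members, which follows from the definition. Counting the ends of all annotated genes put 11.4% of the members at a gene end, against 5.18%. With Saos-2 hotspots under a −log10 of 2 dropped there were 81 runs, and with that threshold in both lists 56, of which the members included 900 of the 1293 reported. Placing U2OS first at equal starts (56 runs) and leaving out chromosome 8 (44 runs) were alternatives chosen after seeing the data. Unknown depth limits every count: a Saos-2 site just under the authors' threshold would end a run, and 1 library per line leaves the spread between cultures unmeasured.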

Other observations

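Chromosome X, which the rule left out, had 1485 U2OS and 1398 Saos-2 hotspots. No U2OS run of 18 or more occurred there, and the longest held 13.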
